A study of Mus musculus with 12 samples.

Results

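The MYC and MAX network is a small family of transcription factors, and 9 of its genes were described across the 4 groups of an RNA-seq series of cultured mouse bone marrow cells: Myc, Mycl, Max, Mxd1, Mxd3, Mxd4, Mxi1, Mnt and Mlx. They were taken by name and matched by Ensembl identifier, and they are 9 of 41388 genes listed and of 13030 genes tested. The 9 were chosen by name but with their levels and changes in these same 12 libraries known. Their values are therefore given as a description, with standard errors and without p-values, and p-values are given for genes outside the 9. All 9 passed the filter on low counts, but Mycl passed it through the RANKL libraries alone.

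MYC proteins do not bind DNA alone. They pair with MAX, and the pair binds the E-box CACGTG and raises transcription of genes for ribosome production, nucleotide and polyamine synthesis and cell growth. MXD1, MXD3, MXD4, MXI1, MNT and MGA pair with the same MAX and the same sites, and most of them recruit SIN3 and histone deacetylases, which lowers transcription, so the 2 sides compete for MAX. MLX is a MAX-like factor that pairs with the glucose-responsive MLXIP and MLXIPL and with some MXD proteins and MNT. In the macrophage lineage MYC is known to be induced by RANKL, the cytokine that turns macrophages into osteoclasts, the cells that resorb bone.

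The study asked how the chromatin regulator Asxl2 shapes the transcriptome of macrophages and osteoclasts. Bone marrow cells of C57BL/6 mice grew for 5 days and were then replated for 2 days in 2% M-CSF, the macrophage growth factor, without RANKL (BMM) or with RANKL at 50 ng/ml (OC). The control genotype had a floxed Asxl2 (flox), and the second genotype, LysM Cre positive, makes the recombinase from the lysozyme locus of myeloid cells (KO). Each of the 4 groups, flox_BMM, KO_BMM, flox_OC and KO_OC, held 3 libraries of 18489873 to 21667237 counts. No group carried Cre with an intact Asxl2, so effects of Cre and of the loss of Asxl2 cannot be told apart. The labels give neither the age of the mice nor whether libraries came from separate animals, so p-values measure only a spread among libraries that may be technical.

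Asxl2 fell from 93.1 ± 3.01 to 15.1 ± 0.265 CPM (counts scaled to a common library total; SD, n = 3) in BMM and from 73.4 ± 2.27 to 13.7 ± 1.24 CPM in OC, as the labels say. The 10 osteoclast markers summed to 234 to 243 CPM in flox_BMM, 206 to 210 CPM in KO_BMM, 743 to 765 CPM in flox_OC and 379 to 396 CPM in KO_OC. Calcr among them was too low to compare, with a mean of 0.0165 CPM in flox_OC and 0 in the other groups. The 10 macrophage markers summed to 29730 to 34780 CPM in BMM and to 15910 to 17110 CPM in OC. Most of both sums was Lyz2, with means of 21800 CPM in flox_BMM, 19600 CPM in KO_BMM, 10600 CPM in flox_OC and 11700 CPM in KO_OC. The median log2 change of the 10 with RANKL was -1.27 in flox and -1.03 in KO cells. Single markers changed by -0.48 (Cd68) to -3.38 (Fcgr1) in flox cells. The sums of stromal, megakaryocyte, neutrophil, B cell and T and NK cell markers lay lower in KO than in flox libraries: stromal markers summed to 169 to 187 CPM in flox_BMM against 53.6 to 60.3 CPM in KO_BMM, and megakaryocyte markers to 343 to 408 against 48.0 to 52.1 CPM. Nearly all of the megakaryocyte sum was Pf4 (means of 373 CPM in flox_BMM and 49.9 CPM in KO_BMM), while Itga2b stood at 0.166 and 0.268 CPM. In flox_BMM most of the neutrophil sum was Mmp8 (72.9 CPM), of the B cell sum Ighm (25.5 CPM) and of the T and NK cell sum Il7r (94.2 CPM). These 4 sums therefore describe mainly single genes. Erythroid markers summed to at most 0.401 CPM in any library. Within flox_BMM, library 1 stood apart from library 3, with a chi-square per degree of freedom of 5.045 against 1.23 to 2.83 for the other 11 pairs of libraries of one group. Results that rest on library 1 are given with and without it. In bulk RNA, fewer cells of a type and less RNA per cell cannot be told apart.

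Of the 9 genes, 8 had a promoter entry in RefSeq (assembly GRCm38.p6, 250 bases before to 50 bases after the annotated start), with 10 such windows in all. Both strands were searched for the E-box CACGTG, which reads the same on both. It was found in 4 of the 8: Mxd4, Mnt, Mlx and Max, beginning 219, 123, 40 and 3 bases before the start. By the same search, 8.09% of 27025 genes with an entry, and 11.9% of the 9623 tested genes with one, held a CACGTG. The 4 sites are shown because MYC, MXD and MLX partners share this motif, so that they are places where network proteins could meet network genes. Each stands with 20 bases on either side, 5′ to 3′ on the strand of the gene, with the E-box in capitals.
Mxd4, chr5:34187904-34187949, minus strand: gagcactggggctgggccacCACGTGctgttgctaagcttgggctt
Mnt, chr11:74830781-74830826, plus strand: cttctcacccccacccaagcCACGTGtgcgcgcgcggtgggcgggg
Mlx, chr11:101087230-101087275, plus strand: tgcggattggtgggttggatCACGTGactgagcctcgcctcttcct
Max, chr12:76962226-76962271, minus strand: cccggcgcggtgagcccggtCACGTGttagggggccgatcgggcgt
Of these 4 genes, Mxd4 and Mnt were lower with RANKL in both genotypes and Max was higher, so the motif went with levels in both directions. No AP-1 motif (TGANTCA) or E2F motif (TTTNNCGC) was found in the 10 windows of the 8 genes, on either strand. A match describes letters only and does not show binding.

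Of the genes with an entry, Mycl had the widest change with RANKL and Mxd1 the widest between genotypes in OC. Their upstream stretches are shown for that reason, and neither window holds a CACGTG. The RefSeq start of Mycl lies inside the Ensembl model used for the counts, which begins farther upstream, so the stretch printed for Mycl is within that gene model. The stretch before the Mycl start holds 1 TATAAA, which begins 8 bases before the start annotated by RefSeq and is in capitals. This motif was searched after the sequence was seen, on both strands, and 15.7% of the 27025 genes with an entry hold it. The Mxd1 stretch was 78.4% G and C.
Mycl, chr4:122995851-122995930, plus strand: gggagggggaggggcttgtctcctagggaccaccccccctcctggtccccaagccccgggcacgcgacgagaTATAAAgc
Mxd1, chr6:86669160-86669409, minus strand: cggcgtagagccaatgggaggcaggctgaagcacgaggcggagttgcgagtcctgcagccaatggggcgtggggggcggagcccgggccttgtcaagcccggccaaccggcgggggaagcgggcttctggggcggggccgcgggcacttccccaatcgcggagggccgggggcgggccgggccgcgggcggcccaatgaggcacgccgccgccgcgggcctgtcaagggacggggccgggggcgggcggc

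Myc (ENSMUSG00000022346, chromosome 15, 61985341 to 61990374, plus strand, GRCm38), the activator of the network, was several times higher with RANKL in both genotypes. It stood at 84.7, 69.9 and 64.8 CPM in the 3 flox_BMM libraries and at 73.6, 71.2 and 68.7 CPM in KO_BMM. With RANKL it stood at 314, 302 and 311 CPM in flox_OC and at 250.1, 270.2 and 248 CPM in KO_OC. Every OC library lay far above every BMM library, the genotypes overlapped in BMM, and in OC each KO library lay below each flox library. The log2 change with RANKL was 2.08 (SE 0.077, 4.23-fold) in flox and 1.85 (SE 0.077, 3.6-fold) in KO cells. The log2 change between genotypes, KO minus flox, was -0.04 (SE 0.088) in BMM and -0.27 (SE 0.067) in OC. The difference of the RANKL effects was -0.23 (SE 0.11). Library 1 of flox_BMM held the highest Myc of the 6 BMM libraries, and without it the difference of the RANKL effects was -0.36 (SE 0.052) and the genotype difference in BMM was 0.09 (SE 0.044).

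Mycl (ENSMUSG00000028654, chromosome 4, 122995652 to 123002485, plus strand) encodes L-MYC, a second activating partner of MAX that is known from dendritic cells. It was near the limit of detection without RANKL and among the most abundant network RNAs with it. The flox_BMM libraries held 5, 9 and 9 counts and the KO_BMM libraries 4, 2 and 1, where 3 counts, the limit that a count of 0 allows, correspond to at most 0.170 CPM. With RANKL the levels were 103, 97.7 and 102 CPM in flox_OC and 72.9, 67.2 and 70.3 CPM in KO_OC. The summed counts went from 23 to 6362 in flox cells, a depth-scaled ratio of 241 (95% exact interval 161 to 381, counting error only). In KO cells they went from 7 to 4183, a ratio of 599 (291 to 1490), and the wide intervals come from the few BMM counts. Without library 1 of KO_BMM, which held 4 of the 7 counts, this ratio was 968 (331 to 4690). In OC the KO level was 0.693 times the flox level (0.667 to 0.721), a log2 difference of -0.53 (SE 0.039) with no overlap of libraries, and in BMM the ratio was 0.279 (0.101 to 0.672), or 0.173 (0.0332 to 0.572) without library 1 of KO_BMM. The 10 dendritic cell markers summed to 170 to 180 CPM in flox_BMM and 165 to 176 CPM in flox_OC, and to 129 to 147 CPM in KO_BMM and 149 to 154 CPM in KO_OC, nearly all of it Itgax (132 to 163 CPM as group means), which macrophages also express. Of the other 4 markers tested, all named after their values were seen, Zbtb46 rose with RANKL in both genotypes (0.363 to 0.674 CPM in flox and 0.364 to 0.753 CPM in KO cells) and Batf3 fell (1.23 to 0.224 and 0.668 to 0.0497 CPM). Xcr1 and Fscn1 did not pass the test of the RANKL effect in either genotype. Between genotypes 3 of the 5 tested, Itgax, Fscn1 and Batf3, were lower in KO in both states, against 20.6% and 19.9% of all genes. Fscn1 stood at 8.55 CPM in flox_BMM and 2.68 CPM in KO_BMM, and at 8.19 CPM in flox_OC and 3.36 CPM in KO_OC. Zbtb46 and Xcr1 did not differ between genotypes by the test. Clec9a was too low to compare, at 0 in KO_BMM and at most 0.0922 CPM as a mean of the other groups. The part of these markers in the levels of Mycl was not tested.

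The third MYC gene, Mycn, held 0 to 3 counts in each library and was at 0 in the 3 flox_OC libraries, so that it was too low to test. Together, Myc and Mycl made up nearly all MYC-type RNA in every group, and the Mycl part of it was 18.3% ± 0.112 in flox_OC and 15.8% ± 1.11 in KO_OC (SD, n = 3, levels per kb of exonic bases).

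Max (ENSMUSG00000059436, chromosome 12, 76937269 to 76962248, minus strand), the shared partner, differed less with RANKL than Myc, Mycl and the MXD-type genes. It stood at 86.4, 86.6 and 91.3 CPM in flox_BMM and at 97.0, 99.1 and 96.1 CPM in KO_BMM. With RANKL it stood at 108, 101 and 105 CPM in flox_OC and at 103, 107 and 103 CPM in KO_OC. The KO_BMM libraries lay between flox_BMM and the OC groups, and the 2 OC groups overlapped. The log2 change with RANKL was 0.25 (SE 0.036) in flox and 0.10 (SE 0.035) in KO cells, and between genotypes it was 0.15 (SE 0.036) in BMM and -0.01 (SE 0.035) in OC. With library size alone as the scale, the RANKL changes of Max were 0.42 and 0.23.

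**Figure D1:**
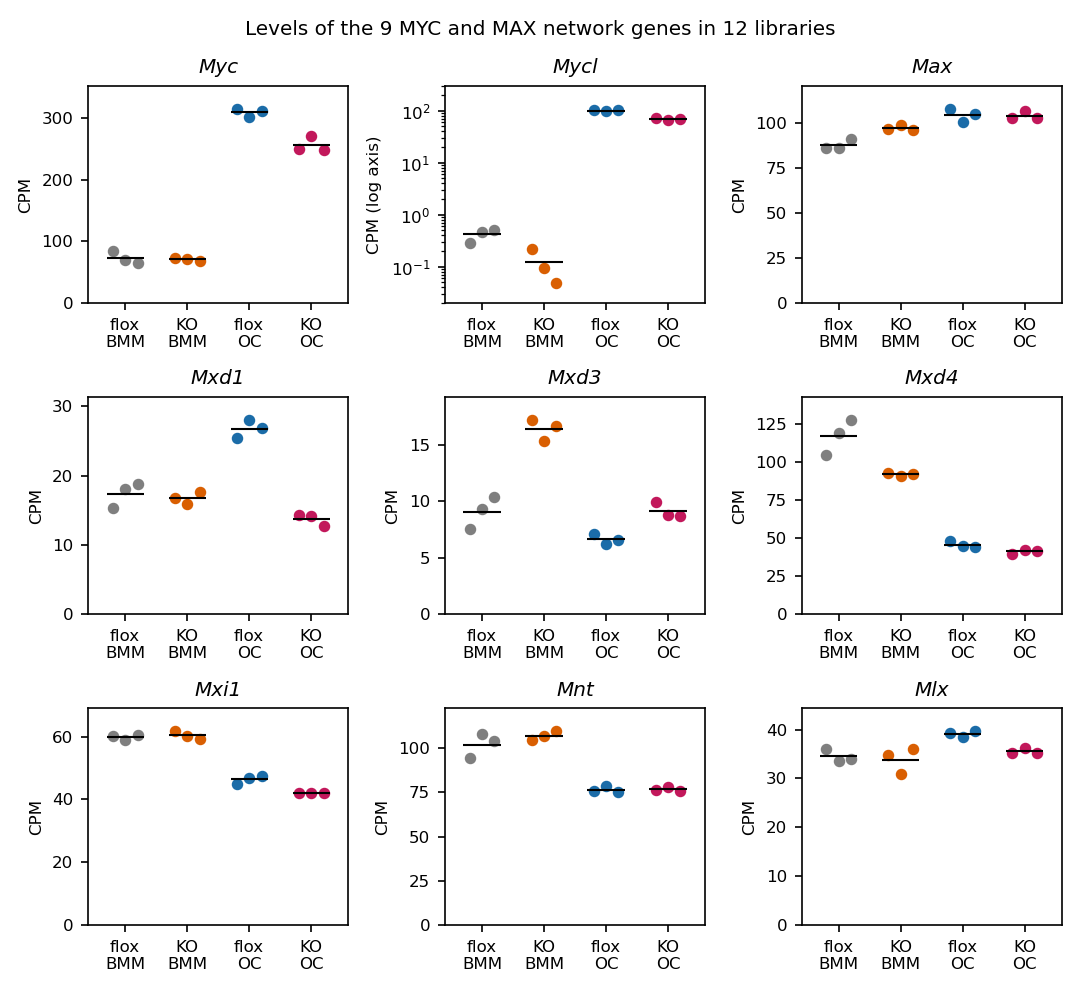
TMM-scaled CPM (y axis, linear from 0 except for Mycl, which has a log axis) of the 9 genes in the 4 groups (x axis); each point is 1 library and each line the mean of 3. Myc and Mycl are high in both RANKL groups, Mxd4, Mxi1 and Mnt are low in them, and Mxd1 is high in flox_OC at 25.4 to 28.0 CPM and lowest in KO_OC at 12.7 to 14.2 CPM.

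Among the repressive partners, Mxd1 (ENSMUSG00000001156, chromosome 6, 86647044 to 86669159, minus strand) differed most between the genotypes, and did so in OC. MXD1 is known as a MAX partner that accompanies differentiation in many lineages. It stood at 15.37, 18.03 and 18.73 CPM in flox_BMM and at 16.8, 15.9 and 17.6 CPM in KO_BMM. In flox_OC it stood at 25.4, 28.0 and 26.9 CPM and in KO_OC at 14.2, 14.2 and 12.7 CPM. The BMM groups overlapped, each flox_OC library lay above every other library, and each KO_OC library lay below every other library. The log2 change with RANKL was 0.62 (SE 0.067) in flox and -0.29 (SE 0.076) in KO cells, so the change had opposite signs in the 2 genotypes, with a difference of -0.91 (SE 0.10). With library size alone the 2 changes were 0.79 and -0.16. Between genotypes the log2 change was -0.05 (SE 0.074) in BMM and -0.96 (SE 0.069) in OC. The summed osteoclast markers, given above, were also lower in KO_OC than in flox_OC, and their part in the level of Mxd1 was not tested.

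Mxd3 (ENSMUSG00000021485, chromosome 13, 55325168 to 55329758, minus strand), the MXD gene known to be expressed in dividing cells, was higher in KO than in flox cells. It stood at 7.54, 9.32 and 10.3 CPM in flox_BMM and at 17.2, 15.3 and 16.6 CPM in KO_BMM. In OC it stood at 7.13, 6.22 and 6.58 CPM in flox and at 9.89, 8.76 and 8.68 CPM in KO cells. KO_BMM was the highest group with no overlap, and RANKL libraries lay below the M-CSF libraries of the same genotype. The log2 change between genotypes was 0.85 (SE 0.088) in BMM and 0.45 (SE 0.10) in OC, and with RANKL it was -0.45 (SE 0.10) in flox and -0.84 (SE 0.086) in KO cells. The 24 genes listed for proliferation summed to 3860 to 4031 CPM in flox_BMM and 5051 to 5177 CPM in KO_BMM, and to 5237 to 5317 CPM in flox_OC and 5769 to 5852 CPM in KO_OC. Between genotypes this sum and Mxd3 were higher in the same groups, whereas with RANKL the sum was higher and Mxd3 lower. The part of proliferation in the level of Mxd3 was not tested. Of the exonic bases of Mxd3, 5.0% overlap Prelid1 on the opposite strand, and the counting ignored strand.

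Mxd4 (ENSMUSG00000037235, chromosome 5, 34173887 to 34187720, minus strand) had the largest RANKL change of the repressive partners. It stood at 104, 119 and 127 CPM in flox_BMM and at 92.8, 90.9 and 92.2 CPM in KO_BMM. With RANKL it stood at 47.7, 44.8 and 44.2 CPM in flox and at 39.7, 42.4 and 41.4 CPM in KO cells. The 4 groups did not overlap, with flox_BMM highest and KO_OC lowest. The log2 change with RANKL was -1.36 (SE 0.053) in flox and -1.16 (SE 0.055) in KO cells, and between genotypes it was -0.35 (SE 0.048) in BMM and -0.15 (SE 0.061) in OC. Its promoter holds the E-box farthest from the start of the 4 shown above.

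Mxi1 (ENSMUSG00000025025, chromosome 19, 53310506 to 53375810, plus strand), which encodes the repressor also called MXD2, ranged from 59.1 to 61.7 CPM over the 6 BMM libraries, with overlapping genotypes. With RANKL it stood at 44.9, 46.8 and 47.4 CPM in flox and at 42.0, 42.1 and 41.9 CPM in KO cells. Both OC groups lay below all BMM libraries and KO_OC lay below flox_OC. On the log2 scale the change with RANKL was -0.37 (SE 0.041) in flox and -0.52 (SE 0.042) in KO cells, and the genotype difference was 0.01 (SE 0.04) in BMM and -0.14 (SE 0.043) in OC. Another gene on the opposite strand, Gm10197, overlaps 3.45% of the exonic bases of Mxi1.

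Mnt (ENSMUSG00000000282, chromosome 11, 74830920 to 74845725, plus strand) encodes a broadly expressed MAX partner that represses transcription and can also pair with MLX. It stood at 94.2, 108 and 104 CPM in flox_BMM and at 105, 107 and 109.6 CPM in KO_BMM. Over the 6 OC libraries it ranged from 75.1 to 78.7 CPM. The genotypes overlapped in both states and the OC libraries lay below the BMM libraries. Its change with RANKL was -0.42 on the log2 scale (SE 0.039) in flox and -0.48 (SE 0.039) in KO cells, with a difference of -0.06 (SE 0.055).

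Mga, outside the 9 genes, encodes a very large MAX partner found in a Polycomb-like complex, and it went the other way. It rose with RANKL by 0.20 on the log2 scale (SE 0.037, adjusted p = 3.82e-06 by edgeR's quasi-likelihood test) in flox cells, from 80.8 ± 1.99 to 92.9 ± 0.695 CPM. In KO cells it rose by 0.30 (SE 0.036, adjusted p = 4.03e-10), and in OC it was higher in KO by 0.15 (SE 0.035, adjusted p = 0.000476). The difference of the RANKL effects was 0.10 (SE 0.051, adjusted p = 0.19).

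Mlx (ENSMUSG00000017801, chromosome 11, 101087277 to 101092207, plus strand) differed little between groups. It stood at 36.0, 33.6 and 33.9 CPM in flox_BMM and at 34.7, 30.9 and 36.0 CPM in KO_BMM, and at 39.2, 38.4 and 39.7 CPM in flox_OC and 35.1, 36.3 and 35.3 CPM in KO_OC. The flox_OC libraries lay above all others, and the remaining groups overlapped. Its log2 change with RANKL was 0.18 (SE 0.051) in flox and 0.07 (SE 0.052) in KO cells, and its genotype difference in OC was -0.14 (SE 0.05). With library size alone the RANKL changes were 0.35 and 0.21. Psmc3ip on the opposite strand overlaps 19.3% of the exonic bases of Mlx, so small differences of Mlx are uncertain. Of its partners, Mlxip fell with RANKL by 0.27 on the log2 scale in flox cells (SE 0.037, adjusted p = 8.26e-09) and by 0.34 in KO cells (SE 0.037, adjusted p = 1.88e-11). Mlxipl held 0 to 5 counts in each library and was too low to test.

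**Figure D2:**
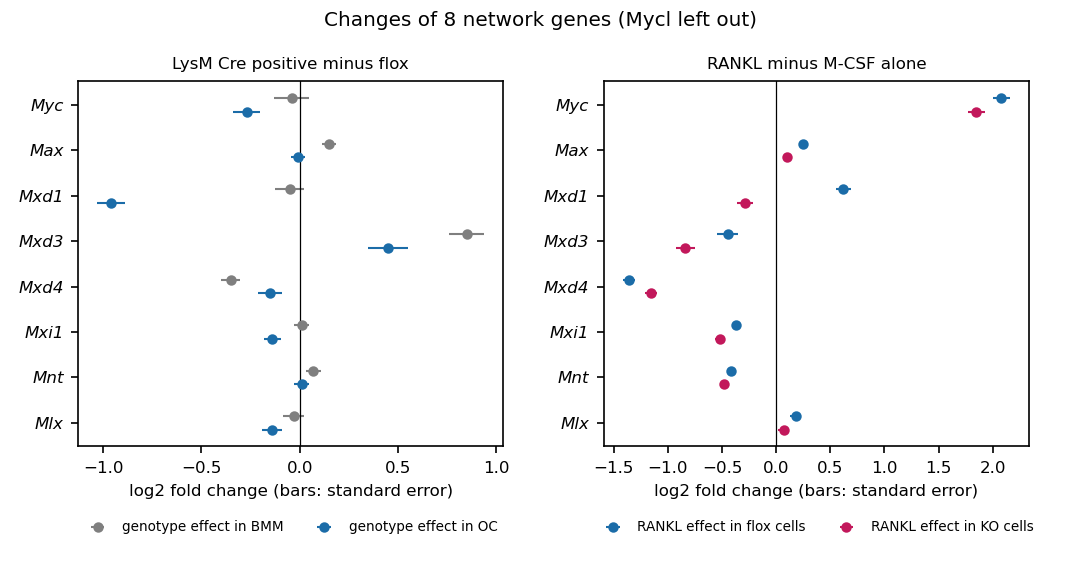
Log2 fold changes (x axis; points, with standard errors as bars) of 8 of the genes (y axis) for KO minus flox in BMM and OC (left) and for RANKL minus M-CSF alone in flox and KO cells (right); Mycl is left out because its BMM counts were 1 to 9. Myc lies at 2.08 and 1.85 on the right, Mxd4 at -1.36 and -1.16, and Mxd1 is the gene whose RANKL changes have opposite signs.

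The RNAs that compete for MAX were compared per kb of exonic bases, the scale on which levels of different genes can be set side by side. RNA levels do not give protein levels. MYC-type RNA (Myc, Mycl and Mycn) made up 25.9% ± 4.07 of all partner RNA in flox_BMM (SD, n = 3, range 22.7 to 30.5%) and 25.7% ± 0.804 in KO_BMM. In OC it made up 72.6% ± 0.603 in flox and 69.3% ± 0.563 in KO cells. The share of the 4 MXD-type genes went from 47.5% to 15.4% in flox and from 45.8% to 16.0% in KO cells, that of Mnt from 21.5% to 8.78% and from 23.1% to 10.5%, and that of Mga from 5.13% to 3.22% and from 5.45% to 4.24%. So the majority of partner RNA was of the repressive kind in every BMM library and of the MYC kind in every OC library, in both genotypes.

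Both sides moved. The summed MYC-type level went from 26.6 ± 3.71 to 137 ± 3.12 CPM per kb in flox cells and from 25.8 ± 0.92 to 110.0 ± 3.78 CPM per kb in KO cells. The summed level of the repressive partners went from 76.2 ± 5.42 to 51.5 ± 0.46 and from 74.5 ± 0.872 to 48.7 ± 0.492 CPM per kb. In flox_BMM, partner RNA summed to 2.34 ± 0.0535 times the Max level, and in flox_OC to 3.61 ± 0.0678 times, against 2.07 ± 0.0465 and 3.05 ± 0.03 times in KO cells. The larger difference between the genotypes in OC was thus on the MYC side, where the lowest flox library (133 CPM per kb) lay above the highest KO library (114 CPM per kb). The repressive sums in OC did not overlap either, with the lowest flox library at 51.0 and the highest KO library at 49.1 CPM per kb. Within the repressive sum Mxd1, Mxd4 and Mxi1 were lower in KO_OC than in flox_OC, and Mxd3 and Mga were higher. These sums were built from Myc, Mycl, Mycn, the 4 MXD-type genes, Mnt and Mga. All but Mycn and Mga are among the 9 genes, and the sums carry no test.

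**Figure D3:**
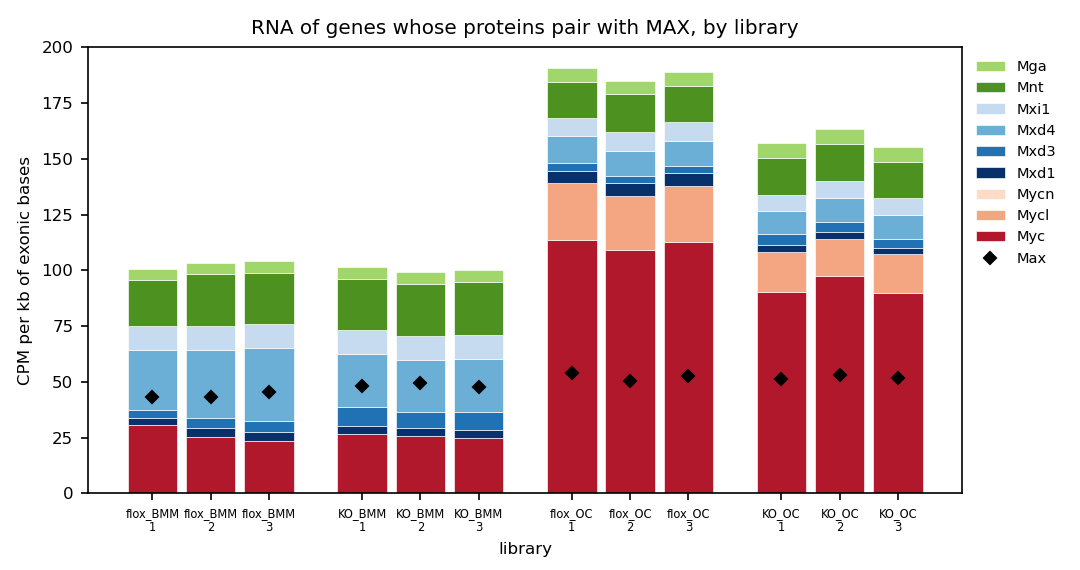
Level in CPM per kb of exonic bases (y axis) of each gene whose protein pairs with MAX, stacked for each of the 12 libraries (x axis), with Max as a diamond. Stacks reach 99.4 to 104 in the BMM libraries, most of it repressive partners, and 155 to 191 in the OC libraries, most of it Myc and Mycl, while Max stays between 43.1 and 53.8.

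The order of the levels per kb changed with RANKL. In flox_BMM it ran Max (43.9 CPM per kb), Mxd4 (30.1), Myc (26.4), Mnt (22.1), Mlx (17.3), Mlxip (11.7), Mxi1 (10.7), Mga (5.27), Mxd3 (4.36), Mxd1 (3.73) and Mycl (0.103), and the libraries of Mxd4 and Myc overlapped, as did those of Mxd3 and Mxd1. In KO_BMM Myc (25.7) stood above Mxd4 (23.7), Mxd4 and Mnt (23.2) overlapped, and Mxd3 (7.86) stood above Mga (5.46). In flox_OC the order began with Myc (112), Max (52.2) and Mycl (25.0), and Mxd4 (11.7) had dropped below Mlx (19.6) and Mnt (16.5). In KO_OC Myc (92.6) and Max (52.0) led, and Mlx (17.8), Mycl (17.4) and Mnt (16.6) followed, each overlapping the next. Mxd1 (5.74 CPM per kb) stood above Mxd3 (3.19) in flox_OC, and Mxd3 (4.38) above Mxd1 (2.94) in KO_OC, so the 2 swapped places between the genotypes.

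The counts of called genes stand beside those of all 13030 genes, where a gene was called at a Benjamini-Hochberg adjusted p under 0.05 in edgeR's quasi-likelihood test. In BMM 4 of the 9 genes were called between genotypes, when 39.9% of all genes were. Mycl was among these 4, although it held only 23 and 7 summed counts in flox_BMM and KO_BMM. It passed the low-count filter through the RANKL libraries alone. In OC 6 of the 9 were called, against 41.3% of all genes. With RANKL 9 of the 9 were called in flox cells and 8 of the 9 in KO cells, against 74.8% and 70.5% of all genes. In the difference of the RANKL effects 3 of the 9 were called (Max, Mxd1 and Mxd3, all negative), against 21.9% of all genes. The choice of the 9 used these values, so nothing is read from these counts, and RANKL changed most genes of these cells.

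The genes whose pattern over the 12 libraries was most like that of each network gene were found by the Pearson correlation of log2 CPM among 9248 genes, as a description without p, since the 12 points share 4 groups. For Myc these were Ftsj3, Srm and Nsun2 (r = 0.999 each), which act in ribosome production, polyamine synthesis and RNA methylation. Within the 6 BMM libraries alone r was 0.892, 0.97 and 0.981, and within the 6 OC libraries 0.977, 0.941 and 0.944. For Mycl they were Gpr132, Traf1 and Pde4dip (r = 0.998 to 0.999), and Traf1, an adaptor of TNF receptors, had means of 10.0, 7.38, 340.0 and 265 CPM in flox_BMM, KO_BMM, flox_OC and KO_OC. For Mxd3 they were the CDK inhibitor genes Cdkn2c and Cdkn2d and the histone gene H2afv (r = 0.97 to 0.989), and Cdkn2c had means of 87.0, 137, 69.7 and 88.2 CPM.

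For Mxd1 they were C9orf72, Tcirg1 and B4galt1 (r = 0.937 to 0.952). Tcirg1, a subunit of the proton pump with which osteoclasts acidify bone, had means of 745, 717, 925 and 706 CPM in the same order of groups. Within the BMM libraries alone C9orf72 and B4galt1 had negative correlations with Mxd1 (-0.293 and -0.401), and Tcirg1 had 0.809. For Mxd4 the genes were Filip1l, Hpgd and Fcgrt (r = 0.996 to 0.997), for Mnt they were Ppard, Atp13a2 and Retreg3 (0.987 to 0.991) and for Max E2f8, Ube2s and Ankle1 (0.968 to 0.969). For Mxi1 they were Rin2, Pqlc1 and Tec (0.992 to 0.995), all 3 with negative correlations within the BMM libraries. For Mlx, which varied little, Arfrp1, Tmem258 and Polr2g reached 0.884 each.

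Known MYC targets were measured with a list of 57 genes modelled on a public collection, without Myc itself. With RANKL nearly all of them rose in both genotypes: 55 of 57 rose and 2 fell in flox cells, against 37.0% of all genes rising and 37.8% falling, and 54 rose and 2 fell in KO cells, against 35.5% and 35.0%. The median log2 change of the list was 1.04 in flox and 0.94 in KO cells, against medians within 0.01 of 0 over all genes. Among targets reaching 5 CPM, the largest rises in flox cells were those of Srm, the spermidine synthase (46.6 ± 6.92 to 184 ± 6.89 CPM, log2 change 1.99, SE 0.066, adjusted p = 5.04e-13), Slc19a1, a folate carrier (log2 change 1.81, SE 0.051), and Nolc1, a nucleolar protein (log2 change 1.76, SE 0.038). In KO cells they were those of Srm (log2 change 1.82, SE 0.066) and the nucleoside carrier Slc29a2 (log2 change 1.79, SE 0.097). The genes that fell in both genotypes were Hk2, the glycolytic enzyme hexokinase 2 (log2 change -1.67, SE 0.051, in flox and -1.64, SE 0.052, in KO cells), and Sord, sorbitol dehydrogenase (-0.43 and -0.58), the second named after its values were seen.

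Between genotypes the same list was lower in KO_OC: 37 of 57 targets were lower and 2 higher, against 19.9% and 21.4% of all genes, with a median log2 difference of -0.16. The differences were small next to the RANKL changes. Among targets reaching 5 CPM, the largest falls were those of Rrp9, which acts in ribosomal RNA processing (65.0 ± 0.834 to 49.4 ± 0.789 CPM, log2 change -0.40, SE 0.042, adjusted p = 4.75e-11), and Nop2, a ribosomal RNA methyltransferase (-0.37, SE 0.034). The 2 higher targets were the mitotic kinase genes Plk1 (0.58, SE 0.036) and Plk4, the second named after its values were seen. In BMM 14 of 57 targets were lower in KO and 7 higher, against 20.6% and 19.3% of all genes, which are near the shares of the list. The count of 7 was 11 without library 1 of flox_BMM. The genotype comparisons share their libraries with the RANKL comparisons.

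In the difference of the RANKL effects, 17 of 57 targets had a lower log2 change in KO than in flox cells and 2 a higher one, against 9.53% and 12.3% of all genes. Among targets reaching 5 CPM, the largest differences were those of Hspe1, the mitochondrial co-chaperonin (-0.56, SE 0.083, adjusted p = 1.06e-06), Slc29a2 (0.55, SE 0.14, adjusted p = 0.00207) and Rrp9 (-0.45, SE 0.076). This count depended on single libraries: it was 27 without library 1 of flox_BMM, 10 without library 1 or 3 of KO_BMM, and 11 without library 1 of KO_OC or of flox_OC. The count of 2 became 1 without library 1 or 3 of KO_BMM, 1 or 3 of KO_OC, 1 of flox_BMM or 2 of flox_OC.

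**Figure D4:**
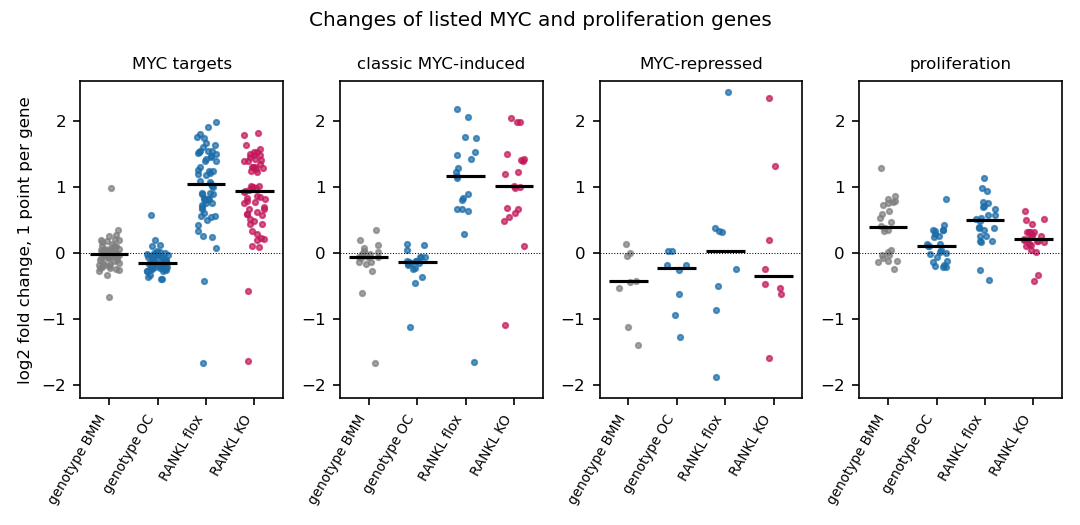
Log2 fold changes (y axis) of the listed MYC targets, classic MYC-induced genes, MYC-repressed genes and proliferation genes in the genotype and RANKL comparisons (x axis); each point is 1 tested gene and each line the list's median, and the dotted line is 0. The MYC target medians lie at 1.04 and 0.94 with RANKL and at -0.02 and -0.16 between genotypes.

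A second list held 20 classic MYC-induced genes, of which 19 were tested. With RANKL 18 rose and 1 fell in each genotype, against 37.0% of all genes rising in flox and 35.5% in KO cells, with medians of 1.16 in flox and 1.01 in KO cells. The amino acid carrier Slc7a5 rose by 2.19 on the log2 scale in flox cells (31.4 ± 2.46 to 143 ± 2.61 CPM, SE 0.045, adjusted p = 4.06e-39), the pseudouridine synthase Dkc1 by 2.06 (SE 0.043) and the serine hydroxymethyltransferase Shmt2 by 1.76 (SE 0.035). In KO cells Odc1, the first enzyme of polyamine synthesis, rose by 1.99 (SE 0.054). The gene that fell in both was Ccnd2, cyclin D2, which was also lower in KO_BMM (6.90 ± 0.267 to 2.14 ± 0.497 CPM, log2 change -1.67, SE 0.15, adjusted p = 1.82e-13). In OC 13 of the 19 were lower in KO and 1 higher, against 19.9% and 21.4% of all genes, with a median of -0.14. Among them were Tfrc, the transferrin receptor (-0.46, SE 0.036), and Odc1 (-0.36, SE 0.041).

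The E-box CACGTG stood in the promoters of 15 of the 52 MYC targets that had a RefSeq entry (28.8%) and of 4 of 16 classic MYC-induced genes (25.0%), against 11.9% of tested genes. Of the proliferation genes, 1 of 21 held it (4.76%).

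Genes known to be repressed by MYC did not move one way. Of 8, 4 rose and 3 fell with RANKL in flox cells, against 37.0% and 37.8% of all genes, and 2 rose and 5 fell in KO cells, against 35.5% and 35.0%. Ndrg1, a stress-response gene, fell by 1.88 on the log2 scale in flox (SE 0.083, adjusted p = 1.63e-25) and by 1.59 in KO cells (SE 0.093), and Txnip, an inhibitor of glucose uptake and a target of MLX partners, fell by 0.87 (SE 0.032) and 0.62 (SE 0.033). Between genotypes 5 of 8 were lower in KO_BMM and 4 of 8 in KO_OC, against 20.6% and 19.9% of all genes, and none was higher. In OC Gadd45b, a stress-response gene, was lower (15.3 ± 0.567 to 6.33 ± 1.25 CPM, log2 change -1.27, SE 0.093), as was Cdkn1a, which encodes the CDK inhibitor p21 (558 ± 14.2 to 362 ± 9.39 CPM, log2 change -0.62, SE 0.033, adjusted p = 1.82e-18). The other listed target of MLX partners that was tested, Arrdc4, rose with RANKL by 0.58 in flox cells (SE 0.072, adjusted p = 6.02e-10).

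Genes for proteins that work with the network were read against all genes, of which 37.0% rose and 37.8% fell with RANKL in flox cells and 35.5% rose and 35.0% fell in KO cells. Of 16 MYC cofactors and turnover genes, 9 rose and 4 fell in flox cells and 10 rose and 5 fell in KO cells, and the ATPase gene Ruvbl2 rose most (54.9 ± 4.21 to 131 ± 3.52 CPM in flox, log2 change 1.25, SE 0.04, adjusted p = 2.35e-31). Of 14 subunits of the SIN3 and NCOR corepressors that MXD and MNT recruit, 8 rose and 3 fell in flox and 7 rose and 5 fell in KO cells, where the share that fell is near that of all genes. They were led by the deacetylase gene Hdac2 (log2 change 0.64, SE 0.039, in flox). When scaled by library size alone, Ncor1 and Sin3b no longer fell in KO cells (0.02 and 0.00). Of 10 genes of the MGA complex, 7 rose and 2 fell in flox cells and 7 rose and 1 fell in KO cells. Pcgf6 (log2 change 0.92, SE 0.096, in flox) and L3mbtl2 (0.76, SE 0.045) were among those that rose. Cip2a, which encodes a protein that stabilises MYC, was higher in KO, by 0.77 (SE 0.05, adjusted p = 9.94e-14) in BMM and by 0.45 (SE 0.045, adjusted p = 1.83e-09) in OC.

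Other factors that read E-boxes changed in both directions: of 16 tested, 4 rose and 8 fell in flox cells with RANKL, against 37.0% and 37.8% of all genes, and 4 rose and 9 fell in KO cells, against 35.5% and 35.0%. Bhlhe40, a repressor of the circadian family, rose from 19.9 ± 1.92 to 84.7 ± 1.78 CPM in flox cells (log2 change 2.08, SE 0.051, adjusted p = 3.1e-36) and from 17.7 ± 0.903 to 36.1 ± 0.734 CPM in KO cells (1.03, SE 0.059). The difference of the 2 effects was -1.05 (SE 0.081, adjusted p = 1.76e-14). Its relative Bhlhe41 fell by 1.55 (SE 0.04) in flox and by 1.19 (SE 0.037) in KO cells. Tfec, of the MITF family, rose in flox cells by 1.21 (SE 0.06, adjusted p = 1.76e-23), and its RANKL effect was smaller in KO cells by a difference of -0.79 (SE 0.087, adjusted p = 6.91e-10).

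Regulators of macrophage and osteoclast fate that have been tied to MYC were also measured, and those described here changed with RANKL or differed between genotypes. Maf, which helps to keep macrophages out of the cell cycle, fell from 805 ± 22.4 to 53.7 ± 1.1 CPM in flox cells (log2 change -3.91, SE 0.034, adjusted p = 1.18e-54) and from 852 ± 17.3 to 118 ± 3.32 CPM in KO cells (-2.86, SE 0.031). Irf8, a repressor of osteoclast formation, fell by 2.68 (SE 0.037) and 2.17 (SE 0.034). Nfatc1, the master regulator of osteoclasts, was lower in KO_OC than in flox_OC (350.1 ± 1.81 to 198 ± 3.78 CPM, log2 change -0.82, SE 0.028, adjusted p = 1.36e-28). For Maf and Nfatc1 the RANKL effect in KO cells was the smaller one in size, with differences of 1.05 (SE 0.045) and -1.05 (SE 0.043).

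Proliferation genes rose with RANKL as well, 22 of 24 in flox and 20 of 24 in KO cells, against 37.0% and 35.5% of all genes, with medians of 0.50 and 0.21. Between genotypes the list was split in OC. In KO_OC 13 of 24 were higher, the other way from most MYC targets, and 6 were lower (median 0.11). Of all genes 21.4% were higher and 19.9% lower. The 6, named after their values were seen, were Mcm6, Pcna, E2f1, Ccne1, Ccne2 and Cdc6. Their log2 changes of -0.13 to -0.22 had the sign of most MYC targets. In BMM 15 of 24 were higher in KO and 5 lower (median 0.39), against 19.3% and 20.6%. Ccnb2, cyclin B2, was higher in KO by 1.29 (57.2 ± 7.59 to 140.1 ± 3.49 CPM, SE 0.061, adjusted p = 2.17e-11) in BMM and by 0.82 (SE 0.057, adjusted p = 4.26e-09) in OC. In the difference of the RANKL effects 16 of 24 were lower and none higher, against 9.53% and 12.3% of all genes, led by Ccna2, cyclin A2 (-0.52, SE 0.042, adjusted p = 8.1e-14).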

How the data were processed

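Poly(A) RNA of 12 libraries in 4 groups of 3 was measured, and groups and replicate numbers were taken from the sample titles. The authors deposited raw read counts for each gene and normalized nothing. The aligner was STAR 2.0.4b with GRCm38, per the submitters' processing notes, and the counter featureCounts 1.4.5-p1 over Ensembl 76 exons with strand setting 0, which ignores strand, per the file headers. How reads were filtered is not given in the sources used here. Symbols matched 40254 of 41388 identifiers, and the others held 0.136% of the counts.

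Counts were scaled to CPM with TMM factors, filtered by edgeR's default filter on groups and fitted with edgeR's quasi-likelihood test (edgeR 4.0.16, R 4.3.3) over all 12 libraries as 4 group means, with 5 contrasts over 13030 genes. Adjusted p-values are Benjamini-Hochberg, with a threshold of 0.05, and standard errors are the absolute log2 change over the square root of F. The code was tested on simulated counts. The 9 genes, 11 gene lists and 10 marker lists were chosen with earlier results of these data known. Named were the 9 genes, the other network genes, Asxl2, per list and comparison up to 3 called genes of the largest change among those reaching 5 CPM in the higher group (if none was called, up to 2 with the highest level), and the 3 genes most like each of the 9 (of at least 5 CPM on average, log2 of CPM plus 0.5). One gene that this rule selects is not reported here. Mitochondrial, ribosomal protein and unnamed genes stayed out of that ranking. Levels per kb used the exonic lengths in the files. Exact intervals and limits of 3 counts cover counting error only. Alternatives were DESeq2 1.42.0, library size alone, no filter, only the groups compared, a replicate block and leaving out each library.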

Additional observations from a re-analysis of the deposited data

Results flagged for a closer look

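The RANKL effect of the 28 genes below, all outside the 9, differed between the genotypes by the test of the difference itself. It was edgeR's quasi-likelihood test of the log2 change in KO minus that in flox cells, with adjusted p under 0.05. They are those that the naming rule picked, at most 3 per list, so their number follows from that rule. Of all genes 21.9% were called in this difference. Other genes named above were called in it as well, among them Ccnb2, Plk1, Nolc1, Tfrc and Slc7a5. For Mxd1 the difference was -0.91, with its 3 flox_OC libraries all above flox_BMM and its 3 KO_OC libraries all below KO_BMM. No p is given for it, because Mxd1 was chosen with its values known.

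Of the osteoclast and macrophage regulators, Nfatc1 had a difference of -1.05, Maf of 1.05 and Irf8 of 0.51. Of the other E-box factors, Bhlhe40 had -1.05, Bhlhe41 0.35 and Tfec -0.79. Of the MYC targets, Hspe1 had -0.56, Rrp9 -0.45 and Slc29a2 0.55, and of the classic MYC-induced genes Odc1 had 0.25, Prmt5 -0.21 and Shmt2 -0.26. The call of Odc1 was lost without library 3 of KO_BMM or library 1 of flox_BMM.

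Of the MYC-repressed genes, Cdkn1a had -0.57, Gadd45a 0.95 and Gadd45b -0.85, and Txnip, also a target of MLX partners, 0.25. Of the proliferation genes, Birc5 had -0.51, Bub1 -0.49 and Ccna2 -0.52. Of the cofactors and turnover genes, Cip2a had -0.33, Ruvbl2 -0.26 and Skp2 -0.32. Of the corepressors, Arid4a had 0.19, Sin3b -0.18 and Suds3 -0.20, and of the MGA complex Tfdp1 had -0.20, Wdr5 -0.24 and Yaf2 0.24. The calls of Arid4a and Yaf2 were lost with DESeq2 and with library size alone.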

How the results depend on the processing

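The counts of called MYC targets were recomputed under each alternative. For the 17 with a lower RANKL change in KO cells the count was 8 with DESeq2, 24 with library size alone and 10 to 27 with 1 library left out (27 without library 1 of flox_BMM, 10 without library 1 or 3 of KO_BMM). For the 2 with a higher change it was 1 with DESeq2, 1 with library size alone and 1 to 2 with 1 library left out. For the 7 targets higher in KO_BMM it was 11 with library size alone and 6 to 11 with 1 library left out (11 without library 1 of flox_BMM). For the 2 higher in KO_OC it was 4 with only the groups compared and 2 to 3 with 1 library left out. The other 6 counts stayed within 1.5 times their reported value under every alternative run. Scaling by library size alone moved the median of all genes by 0.16 (RANKL, flox cells) and 0.14 (RANKL, KO cells), and the share of called genes that were higher from 49.5% to 62.8% and from 50.4% to 63.5%, from 48.3% to 59.9% between genotypes in BMM and from 56.4% to 43.3% in the difference of RANKL effects. It moved the RANKL changes of the 9 genes upward by about those medians, with no change of sign: in flox cells Max went from 0.25 to 0.42, Mlx from 0.18 to 0.35, Mxd3 from -0.45 to -0.28, Mxi1 from -0.37 to -0.20 and Mnt from -0.42 to -0.25, and in KO cells Max from 0.10 to 0.23, Mlx from 0.07 to 0.21 and Mxd1 from -0.29 to -0.16. Under it the genotype difference of Mlx in BMM went from -0.03 to 0.01, and Ncor1 and Sin3b turned from lower to 0.02 and 0.00 with RANKL in KO cells. Within the 6 BMM libraries the likeness turned negative for C9orf72 (-0.293) and B4galt1 (-0.401) to Mxd1 and for Rin2 (-0.16), Pqlc1 (-0.029) and Tec (-0.548) to Mxi1; the cause was not tested. With 1 library left out, the Mycl count ratio with RANKL ranged from 458 to 968 in KO cells and from 209 to 268 in flox cells, and that between genotypes in BMM from 0.173 to 0.365.

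Libraries with the same replicate number did not deviate together (correlations of deviations from -0.035 to 0.04), so the replicate numbers were used only as names. Whether such libraries came from the same animal or culture cannot be read from these correlations, and the labels do not say. With the replicate block 16 MYC targets had a lower RANKL change in KO cells, against 17 without it, and no other of these counts moved. At the depth of these libraries Mycl, Mycn and Mlxipl could not be compared closely in BMM, where they held 0 to 9 counts each.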
